A study of Rattus norvegicus with 40 samples.

Results

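The right common carotid artery of rats whose left carotid had been injured was compared between animals given tissue-type plasminogen activator (tPA) on the injured side and animals given the carrier gel alone, 4 days after surgery. Of the 40 arrays of the study, 6 carry the labels of this comparison, 3 of the right artery after tPA and 3 of the right artery after gel, and they were chosen by those labels alone. All rats were male Wistar-Kyoto animals aged 3 months. In both groups the left artery was ballooned under ketamine anaesthesia and then coated on its outer side with Pluronic gel F-127, which carried recombinant tPA at 20 nmol per kg in one group and nothing in the other. Nothing was applied to the right artery, so its wall was neither ballooned nor treated, but its animals had been operated on. The study also holds the left arteries of the same groups, both arteries on day 1, left arteries after a sham operation on day 1 or day 4 and left arteries of intact rats. Each array measured RNA pooled from 3 vessels on a rat oligonucleotide array of the U34 design, so an array is 1 sample of a group. The labels number the replicates but do not say whether the right and left arteries on arrays of the same number came from the same rats. By its design the comparison sets the opposite, uninjured artery of treated rats against that of rats given gel alone.

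tPA is a serine protease that turns plasminogen into plasmin and so dissolves fibrin, and it also acts on receptors of cells of the vessel wall. The outer coat of the carotid artery is reached by sympathetic nerve fibres, which make noradrenaline from tyrosine by way of the enzymes Th and Dbh. The cell bodies of these fibres lie in the superior cervical ganglion, which sits beside the upper end of the common carotid artery, and fat, Schwann cells and skeletal muscle lie near the vessel. An array of a whole vessel segment reads all of these tissues together, and fewer cells of a type cannot be told apart from less RNA per cell.

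The upstream stretches of Th and Dbh are shown because both genes of noradrenaline synthesis were among those that were lower. Both come from the RefSeq promoter windows of build GRCr8, with the stretches taken outside the gene's own record, and both run 5′ to 3′ on the gene's strand. The capitals mark the cyclic AMP response element TGACGTCA in Th and the shorter core of it, CGTCA, in Dbh. The Th stretch is chr1:207508277-207508356 on the minus strand, and its element starts 69 bases before the transcription start. The Dbh stretch is chr3:30886114-30886193 on the plus strand, and its core starts 174 bases before the start.
Th: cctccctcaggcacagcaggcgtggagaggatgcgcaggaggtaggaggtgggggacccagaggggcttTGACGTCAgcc
Dbh: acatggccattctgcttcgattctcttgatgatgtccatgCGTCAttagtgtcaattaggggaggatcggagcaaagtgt
Of the 59 genes that were lower, 48 had a promoter window. TGACGTCA, whose letters read the same on both strands, lay within 250 bases before the start in 2 of their 56 windows (3.57%), since a gene can have more than 1 window, against 1.59% of all 33469 windows. The core TGACG, or CGTCA on the other strand, which every full element also holds, lay there in 16 of the 56 windows (28.6%), against 18.2% of all windows. A match of letters is a description and shows no binding.

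Of the 6 arrays compared, 1 stood apart from its group. The 3 right gel arrays correlated at 0.46 to 0.65 with the mean of the other arrays of their group, over the 5827 probe sets tested and with each probe set centred over all arrays. The right tPA arrays reached 0.015 and -0.03 in replicates 2 and 3 and -0.11 in replicate 1, where the mean for replicates 2 and 3 includes replicate 1. The standard deviation of the log2 difference between 2 gel arrays was 0.677 to 0.805, that between tPA replicates 2 and 3 was 0.893, and those involving tPA replicate 1 were 1.22 and 1.24. The ratio of the 3' to the 5' actin probe sets was 4.95 in tPA replicate 1, against 10.7 and 16 in the other tPA arrays and 11.7 to 13.6 in the gel arrays. The same ratio for GAPDH was 0.333 in tPA replicate 1, against 3.29 and 8.4 in the other tPA arrays and 1.81 to 6.64 in the gel arrays. The main counts and genes are therefore given with all arrays as labelled and again without right tPA replicate 1, which leaves 2 arrays against 3. Statements that groups overlap or lie apart use all 6 arrays. Acta2, smooth muscle actin, which marks an arterial wall, was bright in all 6 arrays with its brightest probe set. That probe set read 6305.5, 5170.1 and 5220.3 after gel and 4835.1, 5908.4 and 5796.1 after tPA. Other Acta2 probe sets were dimmer, at 335.7 to 780.6 and at 4 to 124.8 over the 6 arrays.

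With all arrays, 95 of 5827 probe sets (1.63%) passed an adjusted p of 0.05 in limma's moderated test, 89 of them lower (1.53%) and 6 higher (0.103%) after tPA. Counted with 1 probe set per gene, 62 of 3546 genes (1.75%) passed, 59 lower (1.66%) and 3 higher (0.0846%). Without replicate 1, 92 probe sets (1.58%) and 60 genes (1.69%) passed, 57 genes lower (1.61%) and 3 higher (0.0846%). Both fits shared 75 probe sets, with 20 passing only with all arrays and 17 only without replicate 1. Of 29 gene lists, the neuron list held the most members that fell. Further genes known from neurons that are on no list, among them Chrna3, Mapk8ip2, Map2, Scg3, Sv2b, Resp18 and Mt3, fell as well and were named for the size of their fall. These genes were high in the right gel arrays, while the right tPA arrays lay near the level of sham-operated arteries.

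**Figure D1:**
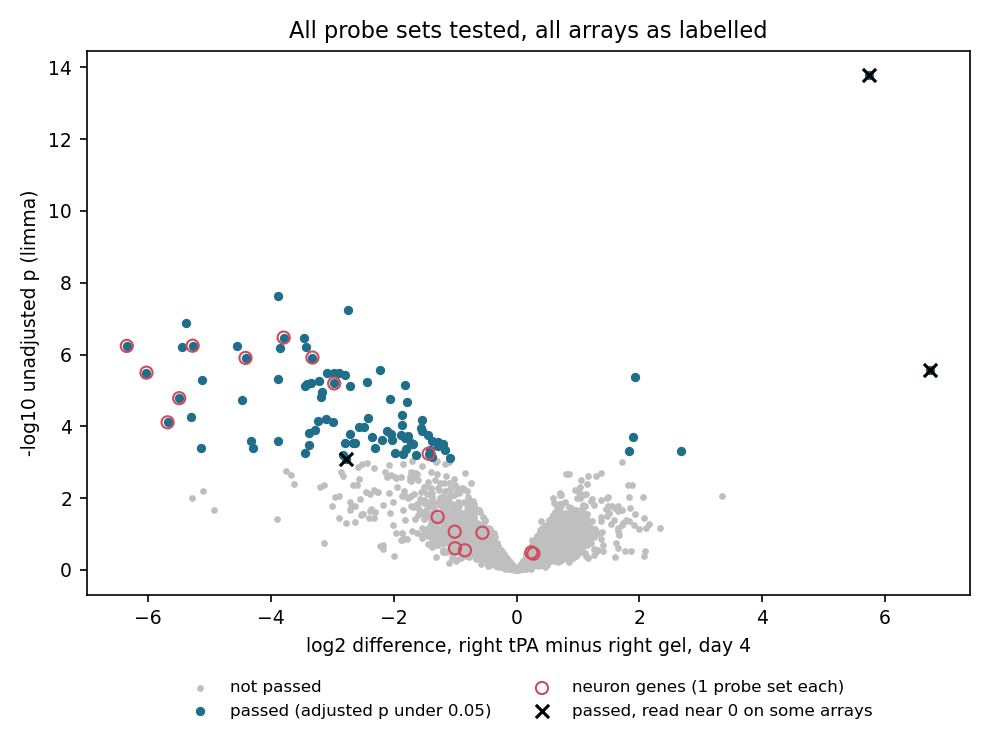
Each point is 1 of the 5827 probe sets tested; the horizontal axis is the log2 difference between the right tPA and right gel arrays on day 4 and the vertical axis the negative log10 of the unadjusted p, with all arrays as labelled. Filled blue points passed the adjusted threshold, red rings mark the 17 neuron genes, and crosses mark 3 passing probe sets that read close to 0 on some arrays of the study; the passing points lie mostly on the left, 89 against 6 on the right.

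The neuron list named 28 genes, of which 22 were on the array and 17 bright enough to be tested, and 10 of these 17 fell after tPA while none rose. The list's median log2 difference was -2.97, against 0.0224 over all genes tested. Without replicate 1, 9 of the 17 fell, none rose and the median was -3.14. The exception was Syp, whose adjusted p was 0.0375 with all arrays and 0.0779 without replicate 1. In 11 of the 17 genes every gel array lay above every tPA array, which held for 6.51% of all genes tested. Brightness was the mean over all arrays of the study, including the right gel arrays of day 4. A neuron gene could therefore be tested because of the group in which it was high. The list was also chosen with earlier results of these data known. Both limits hold for the other gene lists too. Shares of the 17 genes or of another list set beside all genes, here and below, are therefore a description only. With the dimmest 50% of probe sets left out, 10 neuron genes were tested and 6 fell with all arrays. The number of neuron genes that fell without replicate 1 rested on few arrays: it was 4 when right gel replicate 3 was also left out, 2 without right tPA replicate 2 and 3 without right tPA replicate 3.

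**Figure D2:**
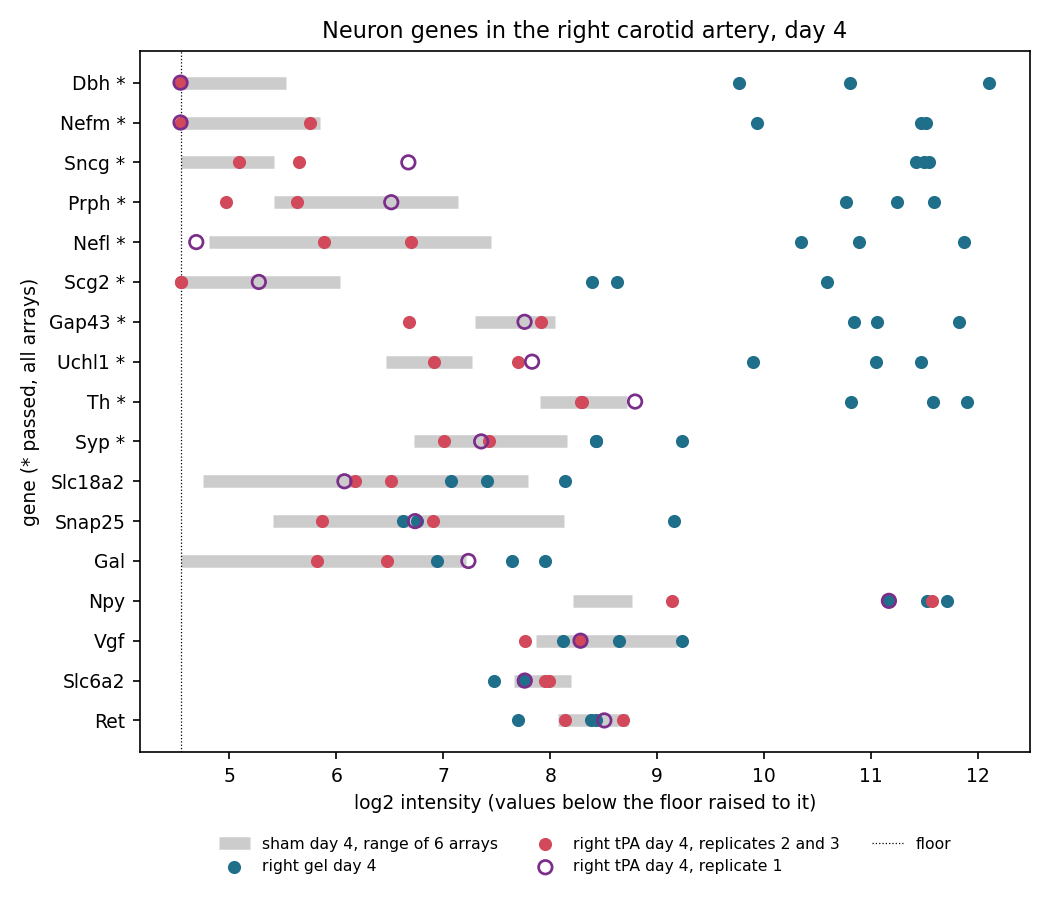
Each row is 1 of the 17 neuron genes tested, and the horizontal axis is its log2 intensity, with values below 23.3 raised to that floor (dotted line); blue points are the 3 right gel arrays, red points right tPA replicates 2 and 3, the open ring right tPA replicate 1, and the grey bar the range of the 6 sham arrays of day 4. In the top 10 rows, marked with an asterisk, the blue points stand apart on the right, and the tPA points lie in or near the grey bars.

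Dbh and Th, the enzymes of noradrenaline synthesis named here, fell without overlap. Dbh, dopamine beta-hydroxylase, which makes noradrenaline from dopamine, read 866.7, 1785.6 and 4403.9 in the right gel arrays and 19.1, 7.3 and 14.7 in the right tPA arrays. All 3 tPA values lay under the floor of 23.3 below which intensities were not told apart, so Dbh was at least 81.4-fold lower after tPA (adjusted p = 0.000322, and 0.00282 without replicate 1). Sham arteries of day 4 ranged from 5.9 to 46.3, the same low range as the tPA arrays. Th, tyrosine hydroxylase, the first and rate-limiting enzyme of the pathway, was chosen after its values were seen. It read 1797.9, 3059.1 and 3810.7 after gel and 443.4, 312.6 and 315.1 after tPA. This was a 7.83-fold fall (95% interval 3.58 to 17.1, adjusted p = 0.00133), and a 8.78-fold fall without replicate 1 (3.64 to 21.2, adjusted p = 0.0051). The 6 sham arteries ranged from 239.9 to 420.9, with a median of 346.2, so only tPA replicate 1 lay above them.

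Other proteins of the sympathetic nerve ending did not pass. Slc18a2, which loads noradrenaline into vesicles, read 134.2, 169.5 and 281.6 after gel and 67.4, 91.3 and 72.1 after tPA, without overlap but with an adjusted p of 0.53. Npy, a peptide released together with noradrenaline, read 3357.7, 2941.8 and 2290.3 after gel and 2297.4, 563.7 and 3045.4 after tPA. Its groups overlapped (log2 difference -0.84, adjusted p = 0.91), and all 6 arrays were brighter than the highest sham array, at 435.8, tPA replicate 2 by the least. The noradrenaline transporter Slc6a2 ranged from 177.6 to 215.6 after gel and from 216.9 to 253.9 after tPA, a narrow gap in the other direction (log2 difference 0.24, adjusted p = 0.936). Ret, Gal, Vgf and Snap25, also on the list, overlapped between the groups, with adjusted p from 0.727 to 0.955. The genes in this paragraph were named after their values were seen, to account for every member of the list.

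Chrna3 and Mapk8ip2 fell as well. Chrna3, a nicotinic acetylcholine receptor subunit that carries transmission in autonomic ganglia, read 986.1, 1029.3 and 1637.2 after gel and 42, 17.7 and 21.7 after tPA. It was 41.8-fold lower (95% interval 13.4 to 130, adjusted p = 0.000192), and at least 50.8-fold lower without replicate 1, since replicates 2 and 3 lay under the floor (adjusted p = 0.00101). Mapk8ip2, a scaffold protein of the JNK pathway found in neurons, read 710.2, 1800.4 and 1700.9 after gel and 32.2, 31.1 and 26 after tPA, a 43.7-fold fall (12.5 to 152, adjusted p = 0.000322). The groups were far apart in both genes, and no tPA value exceeded 42. Chrnb4, the beta subunit that pairs with Chrna3, was chosen after its values were seen and had a smaller difference. It read 514.4, 1075.8 and 1244.8 after gel and 375, 388.4 and 266.1 after tPA (log2 difference -1.38, adjusted p = 0.0222, and 0.0419 without replicate 1). A dimmer Chrnb4 probe set ran the other way, at 51.1 to 155.1 after gel and 209.6 to 377.1 after tPA, and did not pass (adjusted p = 0.361).

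The filament genes Nefl, Nefm and Prph fell, and so did Map2. Nefl, the light neurofilament chain, read 1302.3, 1887 and 3734.3 after gel and 25.8, 103.9 and 59.1 after tPA, a 38.7-fold fall (11.6 to 129, adjusted p = 0.000322, and 0.0051 without replicate 1). Nefm, the medium chain, read 976.6, 2827 and 2929.9 after gel and 19.6, 53.8 and 21.6 after tPA, a 65.2-fold fall (14.3 to 298, adjusted p = 0.000971). Prph, peripherin, a filament of peripheral and autonomic neurons, read 1735.7, 2417.1 and 3069.1 after gel and 91.3, 49.5 and 31.2 after tPA, a 45-fold fall (9.68 to 209, adjusted p = 0.00272). Gel replicate 1 was the lowest of the gel arrays in all 3 filament genes and still lay far above the highest tPA array. Map2, which binds microtubules in neurons, read 648.4, 934 and 2280.5 after gel and 50.1, 64.3 and 131.2 after tPA, a 14.8-fold fall (5.42 to 40.6, adjusted p = 0.00121).

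Gap43, Uchl1, Sncg and Mt3 fell too. Gap43, a growth cone protein, read 2129.8, 1831.4 and 3629.5 after gel and 216.6, 102.7 and 240.2 after tPA, a 13.8-fold fall (5.97 to 32.1, adjusted p = 0.000322, and 0.00187 without replicate 1). Uchl1, a neuronal deubiquitinating enzyme, read 954, 2108.1 and 2824.4 after gel and 227.4, 207.1 and 120.4 after tPA, a 10-fold fall (4.54 to 22.1, adjusted p = 0.000517). Its 2 other probe sets also fell with all arrays, with adjusted p of 0.00136 and 0.0288, and the weaker of them did not pass without replicate 1 (0.238). Sncg, gamma-synuclein, read 2741.9, 2882.8 and 2974.2 after gel and 102, 34 and 50.1 after tPA, a 51.3-fold fall (8.69 to 303, adjusted p = 0.00977). Mt3, a metallothionein of the nervous system, read 422.2, 868.9 and 1768.4 after gel and 42.8, 40.8 and 34.3 after tPA, a 22.1-fold fall (6.26 to 78.2, adjusted p = 0.003). The gel and tPA arrays did not overlap in any of these 4 genes.

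Scg2, Scg3, Sv2b and Resp18 fell as well, while Vgf, Snap25 and Slc18a2, which also act in granules or vesicles, did not pass. Scg2, secretogranin II, a granule protein cut into signalling peptides, read 394.9, 335.2 and 1535.3 after gel and 38.7, 6.4 and 18.3 after tPA, a 21.3-fold fall (7.44 to 61.1, adjusted p = 0.000517). Scg3, secretogranin III, read 1000.9, 964 and 2925.1 after gel and 85.5, 18.6 and 11.4 after tPA, a 39.3-fold fall (7.81 to 198, adjusted p = 0.00812). Sv2b, a synaptic vesicle protein, read 685, 350.9 and 1237.6 after gel and 27.9, 28.1 and 29.7 after tPA, a 23.4-fold fall (8.26 to 66.1, adjusted p = 0.000322). The 3 genes were low in every tPA array and highest in gel replicate 3. Resp18, an endoplasmic reticulum protein of neuroendocrine cells, read 305.2, 545.8 and 1185.7 after gel and 93.3, 20.4 and 28.5 after tPA, a 14.7-fold fall (6.94 to 31.2, adjusted p = 6.91e-05). Without replicate 1 the fall of Resp18 was 22.6-fold (10.4 to 49.3, adjusted p = 7.72e-06), the smallest p among the genes that fell in either fit. The 16 neuronal genes given so far as passing with their own fold change also passed without replicate 1, with adjusted p up to 0.017, for Sncg.

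Further genes known from neurons passed at smaller size and were chosen after their values were seen. Elavl4, a neuronal RNA-binding protein, fell by 2.23 on the log2 scale with its brightest probe set and by 2.75 with another (adjusted p = 0.000971 and 0.000109). Rab3b, Syt4 and Stx1a, which act in vesicle release, fell by 3.42, 3.18 and 1.54 (adjusted p = 0.00135, 0.00253 and 0.0149). Gfra2, a receptor for a neurotrophic factor of the GDNF family, fell by 2.72, and L1cam, an adhesion molecule of axons, by 2.02 (adjusted p = 0.0173 and 0.0214). The brightest probe sets of all these genes passed without replicate 1 too, whereas a dimmer probe set of Stx1a (adjusted p = 0.477) and one of Gfra2 (0.996) did not pass with all arrays. Cadps, a priming factor of dense-core granules, fell by 3.39 with all arrays (adjusted p = 0.025) and did not pass without replicate 1 (0.243).

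The neuron genes were at different levels across the other groups of the study. The mean of the 17 neuron genes, with each gene centred on its log2 mean over 40 arrays, was 1.87, 2.35 and 2.89 in the right gel arrays of day 4 and -0.32, -0.623 and -0.583 in the right tPA arrays. Sham arteries of day 4 lay between -0.962 and -0.375, so the tPA arrays sat within or just above the sham range and the gel arrays far above it. Left arteries of day 4 lay at 0.471, 1.4 and 0.143 after gel and at -0.483, -0.0654 and -0.387 after tPA. Right arteries of day 1 overlapped between the treatments, at -0.894, -1.03 and -0.145 after gel and at 0.862, -0.637 and 0.582 after tPA. The intact arteries, which were never operated on, spread from -0.83 to 1.79, and their highest array, replicate 3, also had the highest skeletal muscle level of the 6 intact arrays, at 1.55. The summed intensity of the 17 neuron genes ran from 17660 to 33760 in the right gel arrays, from 2787 to 5078 in the right tPA arrays and from 2150 to 3457 in the sham arteries of day 4.

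**Figure D3:**
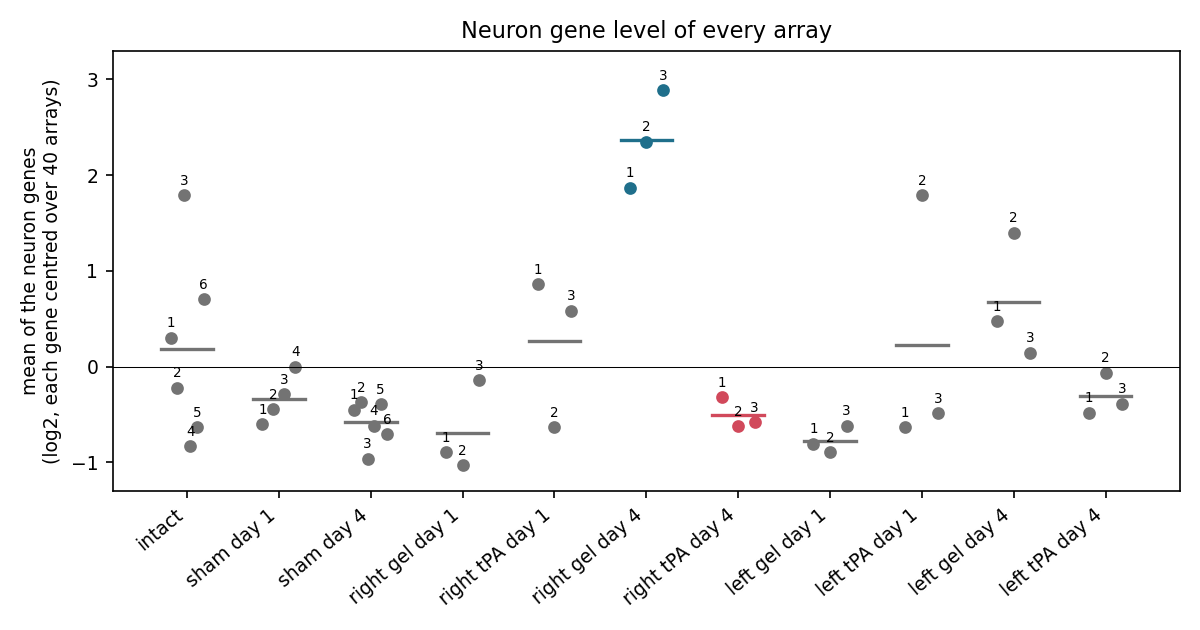
Each point is 1 array, labelled with its replicate number, and the vertical axis is the mean log2 level of the 17 neuron genes, each centred over 40 arrays; horizontal bars are group means. The 3 right gel arrays of day 4 (blue) lie highest, between 1.87 and 2.89, the 3 right tPA arrays of day 4 (red) lie between -0.623 and -0.32, and single arrays of the intact and left tPA day 1 groups reach 1.79.

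Set against the sham arteries of day 4, 514 probe sets differed in the right gel group (8.82%) and 53 in the right tPA group (0.91%). Without replicate 1 the second count was 6 (0.103%). Both use the right arrays already described and the same sham arrays, which are left arteries, so they are given side by side and not as separate evidence. Of the 17 neuron genes, 11 were higher after gel than in sham arteries, against 6.94% of all genes tested, with a median log2 difference of 3.05. For tPA the count in limma's test was 0, with 1 gene at an unadjusted p under 0.05 and 0.536% of all genes called higher, and the median -0.0966, and without replicate 1 the count was 0 and the median -0.0853. Th was 3.05 higher than sham on the log2 scale after gel (adjusted p = 7.74e-05) and 0.08 higher after tPA (adjusted p = 0.957). For Gap43 the same values were 3.65 (adjusted p = 2.41e-05) and -0.14 (adjusted p = 0.929), and for Uchl1 they were 3.9 (adjusted p = 4.7e-06) and 0.58 (adjusted p = 0.582). The right gel arrays of these 3 genes lay above all 6 sham arrays, and the tPA arrays lay in or near the sham range. The count for gel was 175 without right gel replicate 3, and that for tPA ran from 24 without sham replicate 5 to 133 without sham replicate 4, with 6 again without tPA replicate 1 and 116 without tPA replicate 2.

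Schwann cells wrap nerve fibres and make myelin, and none of their 12 genes tested passed limma's test in either fit, with 4 at an unadjusted p under 0.05 in each, against 294 of 3546 genes with all arrays and 331 without replicate 1. In 5 of the 12 (41.7%) all gel arrays lay above all tPA arrays, which held for 6.51% of all genes. Their median log2 difference was -0.404, and -0.422 without replicate 1. The Schwann cell and myelin list nevertheless did not overlap between the groups in its mean level, which was 0.922, 0.958 and 0.869 after gel and 0.0176, -0.327 and -0.138 after tPA. S100b, a calcium-binding protein of glia, read 695.5, 921 and 1389.5 after gel and 101.2, 60.8 and 58.2 after tPA (log2 difference -3.76, adjusted p = 0.0934). Scn7a, a sodium channel of Schwann cells and sensory neurons, read 5292.2, 4692 and 5027.1 after gel and 487.9, 32.6 and 192.7 after tPA (log2 difference -5.11, adjusted p = 0.212). Mbp, a myelin protein, read 139.4, 199.8 and 297 after gel and 69.5, 38 and 42.5 after tPA (adjusted p = 0.47). Each of these 3 genes read less in every tPA array than in any gel array, at adjusted p values that did not pass. A dimmer Scn7a probe set differed by -0.29 on the log2 scale (adjusted p = 0.965). Pmp22, another myelin protein that other cells also make, lay the other way, at 1563.6, 2332.6 and 1266.6 after gel and 3268.4, 3761.2 and 2766.9 after tPA (adjusted p = 0.205). Both the neuron and the Schwann cell and myelin level were higher in the gel arrays, and the part of the second in the neuron result was not tested.

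Of the fat genes, 1 fell. The perivascular adipocyte list had 16 genes tested and a median log2 difference of -0.707, or -0.778 without replicate 1, with 7 members (43.8%) in which all gel arrays lay above all tPA arrays, against 6.51% of all genes tested. The share that fell, 1 of 16, was 6.25%, against 1.66% of all genes. Scd, stearoyl-CoA desaturase, which makes monounsaturated fatty acids, read 705.7, 183 and 418.2 after gel and 57.8, 36.4 and 35.1 after tPA. It fell 9.01-fold (95% interval 3.8 to 21.4, adjusted p = 0.0019), and 10.6-fold without replicate 1 (4 to 27.9, adjusted p = 0.00559). Cfd, adipsin, read 3804.7, 3320 and 1765 after gel and 1516.9, 1015.3 and 1005.8 after tPA, without overlap and without passing (adjusted p = 0.192). Fasn, fatty acid synthase, and Lipe, hormone-sensitive lipase, also lay apart with their brighter probe sets, with adjusted p of 0.151 and 0.464. The mean level of the perivascular adipocyte list was 1.42, 0.868 and 0.67 after gel, 0.369, -0.136 and -0.0716 after tPA, and -0.561 to -0.0426 in sham arteries of day 4. Like the neuron level it was higher after gel than after tPA. Among the gel arrays its order was the reverse of that of the neuron level, which was lowest in replicate 1 and highest in replicate 3. The part of fat in the results was not tested. The fibroblast and adventitia list, which marks the cells of the outer coat, also lay apart, at 0.361, 0.121 and 0.0827 after gel and -0.936, -0.0959 and -0.315 after tPA, replicate 1 being the lowest. None of its 13 genes passed limma's test, 2 had an unadjusted p under 0.05 in each fit, and the median log2 difference was -0.316 with all arrays and 0.15 without replicate 1. Its part in the results was not tested.

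Among 14 genes of sterol synthesis, 2 fell with all arrays, against 1.66% of all genes, and 1 without replicate 1, against 1.61%, with a median log2 difference of -0.186 and -0.194. Acat2, cytosolic acetoacetyl-CoA thiolase, read 1681.9, 2775.7 and 4340.6 after gel and 1034.7, 919.2 and 543.7 after tPA, a 3.4-fold fall (1.88 to 6.14, adjusted p = 0.0186, and 0.0232 without replicate 1). Its second probe set fell too (adjusted p = 0.0309). Lss, lanosterol synthase, read 500.9, 1127.1 and 1383.5 after gel and 492.7, 380.6 and 431 after tPA, a 2.13-fold fall that passed with all arrays (adjusted p = 0.0479) and not without replicate 1 (0.0648). The Lss groups barely separated, since gel replicate 1 and tPA replicate 1 lay side by side, and its second probe set did not pass (adjusted p = 0.639). Sqle, squalene epoxidase, read 1148.6, 1512 and 2687.2 after gel and 453.4, 1091 and 870.7 after tPA, with an adjusted p of 0.11.

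Sostdc1 and Cyp2c11, which fell and are on none of the lists, were chosen after their values were seen. Sostdc1, a secreted inhibitor of BMP and Wnt signalling, read 3434.7, 1947.7 and 3315.4 after gel and 298.3, 112.1 and 203.9 after tPA, a 14.8-fold fall (3.9 to 56.3, adjusted p = 0.0222, and 0.0329 without replicate 1). Sham arteries of day 4 ranged from 112.5 to 194.7 for this gene. Cyp2c11, a cytochrome P450 best known from male rat liver, read 592.9, 65.5 and 231.2 after gel and 14.3, 27.4 and 27.8 after tPA, a 7.97-fold fall (3.13 to 20.3, adjusted p = 0.00977). The gel arrays of Cyp2c11 spread widely, and the lowest of them, at 65.5, lay within the sham range of 24.8 to 225.7. Rps29, the 1 of 36 ribosomal protein genes that fell, read 3103.3, 2113.4 and 2136.5 after gel and 732.2, 14.5 and 2538.7 after tPA, so its groups overlapped, its probe set fell close to 0 on 1 array, and its fall (adjusted p = 0.049) rested on tPA replicate 2. Its other probe set differed by -0.07 on the log2 scale (adjusted p = 0.996).

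The 3 genes that rose with all arrays were Apoe, Ptgs2 and Rab4b. Apoe, apolipoprotein E, read 41.3, 4.3 and 0 after gel and 1867.8, 4243 and 3362.5 after tPA with its brightest probe set (adjusted p = 0.000971, and 0.00377 without replicate 1). That probe set also read 0 to 0.1 in the left gel arrays of day 4 and 3214.5 to 5235.2 in sham arteries of the same day. A second Apoe probe set ran the other way and did not pass, at 2969.3, 4494.6 and 3741.1 after gel and 1802.1, 2251.1 and 926 after tPA (adjusted p = 0.581). The 2 probe sets disagreed in direction, so no direction is given for the gene. Gnas, a G protein subunit with 4 probe sets tested, was named after its values were seen because its probe sets disagreed in the same way. One read 7.3, 30.4 and 0.1 after gel and 1160.3, 1702.9 and 1268.3 after tPA (adjusted p = 9.8e-11). Another read 3312.1, 3048.2 and 3619.4 after gel and 359.9, 89.6 and 143.3 after tPA (adjusted p = 0.0222), and the brightest, between 4342.6 and 5982.1 in all 6 arrays, did not pass (adjusted p = 0.987).

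Ptgs2, the inducible cyclooxygenase, read 161, 196.2 and 99.3 after gel and 1012.3, 990.7 and 824.9 after tPA, a 6.41-fold rise (2.42 to 17) that passed with all arrays (adjusted p = 0.0326). It was as large without replicate 1, at 6.18-fold, but no longer passed (2.04 to 18.7, adjusted p = 0.0934). Sham arteries of day 4 lay between the groups, at 302.1 to 677.7, and a second, dimmer Ptgs2 probe set overlapped between gel and tPA (adjusted p = 0.987). Rab4b, a small GTPase of recycling endosomes, read 98.5, 54.9 and 56.4 after gel and 293.9, 377.6 and 142.2 after tPA, a 3.73-fold rise (1.97 to 7.05, adjusted p = 0.0186). Without replicate 1 the rise was 3.44-fold and did not pass (adjusted p = 0.0757). The tPA arrays of Rab4b spanned the sham range of 183.2 to 333.1 and the gel arrays lay below it, and its second probe set did not pass (adjusted p = 0.784).

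No gene on the lists of the vessel wall itself passed. None of 14 contractile smooth muscle genes passed limma's test, where 0 had an unadjusted p under 0.05 with all arrays and 1 without replicate 1, with a median log2 difference of -0.00857, or 0.221 without replicate 1. Myh11, smooth muscle myosin, read 2993.6, 4411 and 3198.3 after gel and 1188.3, 6800.6 and 5183.2 after tPA, so replicate 1 was the lowest of the 6 arrays and replicates 2 and 3 the highest (adjusted p = 0.997, and 0.611 without replicate 1). None of 13 collagen, elastin and cross-linking genes, 23 matricellular genes, 19 matrix protease genes, 31 growth factor genes, 12 endothelial genes and 22 cell cycle genes passed in either fit. At an unadjusted p under 0.05 with all arrays, these 6 lists held 0, 3, 0, 3, 2 and 1 genes in that order, against 294 of 3546 genes in all. Without replicate 1 they held 0, 1, 2, 2, 1 and 1, against 331 of 3546. Col1a1, the alpha-1 chain of type I collagen, read 6223.8, 5612.6 and 5720.4 after gel and 5977.3, 6851.4 and 6140.4 after tPA, a 1.08-fold difference (95% interval 0.75 to 1.55). Timp1, a metalloproteinase inhibitor, overlapped as well, with a fold of 1 (0.603 to 1.67). Spp1, osteopontin, read 724.8, 1658.5 and 2156.1 after gel and 5428.8, 1313.6 and 2224.3 after tPA, the highest value being replicate 1 (adjusted p = 0.77). Eln, elastin, was read with a probe set that fell close to 0 on 1 of the 6 arrays and is not interpreted.

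No gene of the plasminogen system passed in the opposite artery. None of 15 fibrinolysis and coagulation genes passed limma's test, 0 of them at an unadjusted p under 0.05 in either fit, with medians of 0.0247 and -0.0334. Plat, the rat's own tPA, read 393.9, 567.3 and 684.6 after gel and 621.9, 484.2 and 685.8 after tPA, a 1.11-fold difference whose 95% interval ran from 0.614 to 1.99. Plau, urokinase, read 410.1, 285.8 and 262.1 after gel and 382.1, 131 and 234 after tPA (adjusted p = 0.936). Plaur, the urokinase receptor, read 314.6, 237 and 390.2 after gel and 1008.4, 202.2 and 275.9 after tPA, where again only replicate 1 stood out (adjusted p = 0.991). The 95% interval of the Plaur fold ran from 0.56 to 2.77, a range that holds both a fall and a rise.

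The leukocyte genes stood out in 1 tPA array. None of 6 neutrophil genes, 13 lymphocyte genes and 15 antigen presentation genes passed, and at an unadjusted p under 0.05 the counts were 1, 0 and 0 with all arrays and 0, 0 and 1 without replicate 1. The only macrophage gene that passed was Apoe. S100a8, a neutrophil granule protein, read 94.1, 13.3 and 113.7 after gel and 4916.3, 178.6 and 296.8 after tPA, and S100a9, its partner, read 54.4, 26.4 and 81.5 after gel and 2270.8, 15.3 and 178.7 after tPA. Replicate 1 exceeded every other array in both genes. The neutrophil level was 2.64 in replicate 1, -0.636 and 0.0628 in the other tPA arrays and -0.447 to -0.181 in the gel arrays, and the summed neutrophil intensity was 9477 in replicate 1 against 492.9 to 837 in the other 5 arrays. The macrophage level was 1.06 in replicate 1 against -0.424 to -0.0788 in the 5 others, and the lymphocyte and pan-leukocyte level 1.24 against -0.844 to 0.344. Of the 6 neutrophil genes, Mmp9 and Il1r2 were also highest in replicate 1, at 698.6 and 1434.1, while Cxcr2 was lowest there, at 13.7. The part of these cells in the other results was not tested.

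Replicate 1 was also high in skeletal muscle genes, of which none of 25 tested passed in limma's test, with 1 at an unadjusted p under 0.05 with all arrays and 0 without replicate 1. The skeletal muscle level was 1.91 in tPA replicate 1, -0.00938 and -0.47 in the other tPA arrays, and 1.74, 0.172 and -0.565 in the gel arrays, so gel replicate 1 shared it. Myl3, a slow muscle myosin light chain, read 520.6, 101.9 and 25.9 after gel and 3949.6, 39.5 and 15.7 after tPA. Of the genes in which replicate 1 lay farthest above the other tPA arrays, Myh2, Myh4, Mybpc2, Csrp3 and Trim54 belong to striated muscle and Coro1a and S100a9 to leukocytes. Omd, a proteoglycan of the extracellular matrix, was among those farthest below, at 224.4 against 5570.5 and 3995.9 in replicates 2 and 3. The neuron level of replicate 1 was the highest of the 3 tPA arrays, at -0.32 against -0.623 and -0.583, while the gel array with the highest muscle level had the lowest neuron level of its group. The part of muscle in the neuron result was not tested.

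**Figure D4:**
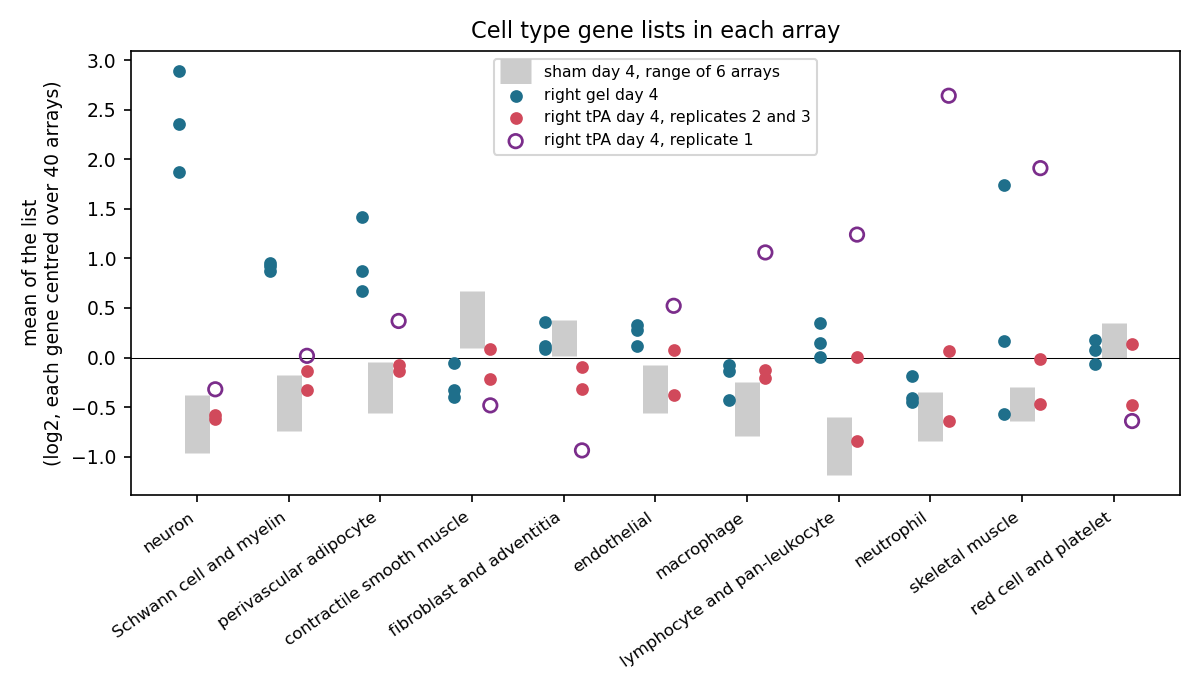
The vertical axis is the mean log2 level of each cell type list, with each gene centred over 40 arrays; blue points are the 3 right gel arrays of day 4, red points right tPA replicates 2 and 3, open rings right tPA replicate 1 and grey bars the range of the 6 sham arrays of day 4. Gel and tPA arrays separate in the neuron, Schwann cell, adipocyte and fibroblast and adventitia columns, and replicate 1 alone lies high in the neutrophil, macrophage and lymphocyte columns, at 2.64, 1.06 and 1.24.

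Of 9 circadian clock genes tested, none passed with all arrays, where 3 had an unadjusted p under 0.05 in limma's test. Without replicate 1 the unadjusted count was 5, and Per2 rose and Bmal1 fell. Per2, a repressor of the clock, read 276.7, 169.5 and 183 after gel and 116.3, 550.8 and 576.3 after tPA, a 2.75-fold rise without replicate 1 (95% interval 1.62 to 4.67, adjusted p = 0.0363) and 1.63-fold with it (adjusted p = 0.763). Bmal1, an activator of the clock whose expression runs opposite to that of Per2, read 558.3, 278.9 and 502.8 after gel and 283.6, 60.9 and 159.7 after tPA, a 4.34-fold fall without replicate 1 (2.04 to 9.21, adjusted p = 0.0323) and 3.05-fold with it (adjusted p = 0.13). A second Bmal1 probe set passed in both fits, at 202.2, 98.2 and 238.6 after gel and 26.3, 15.9 and 19 after tPA (adjusted p = 0.00105 and 0.00517). Dbp, an output gene of the clock, read 680.1, 548 and 240.6 after gel and 764.5, 3002.6 and 1949.2 after tPA (adjusted p = 0.166 and 0.0516). Replicates 2 and 3 lay within the range of the sham arteries of day 4 for Dbp, 1364.6 to 3416.6, and the gel arrays below it. The labels used here give no hour of sampling. Bmp3, a bone morphogenetic protein, was the other named gene that rose without replicate 1, reading 124.5 to 140.9 after gel and 400.5 and 286.2 in tPA replicates 2 and 3 (adjusted p = 0.0421), while replicate 1 read 66.1. A dimmer Bmp3 probe set differed in the same direction without replicate 1 and did not pass (log2 difference 1.84, adjusted p = 0.248).

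**Figure D5:**
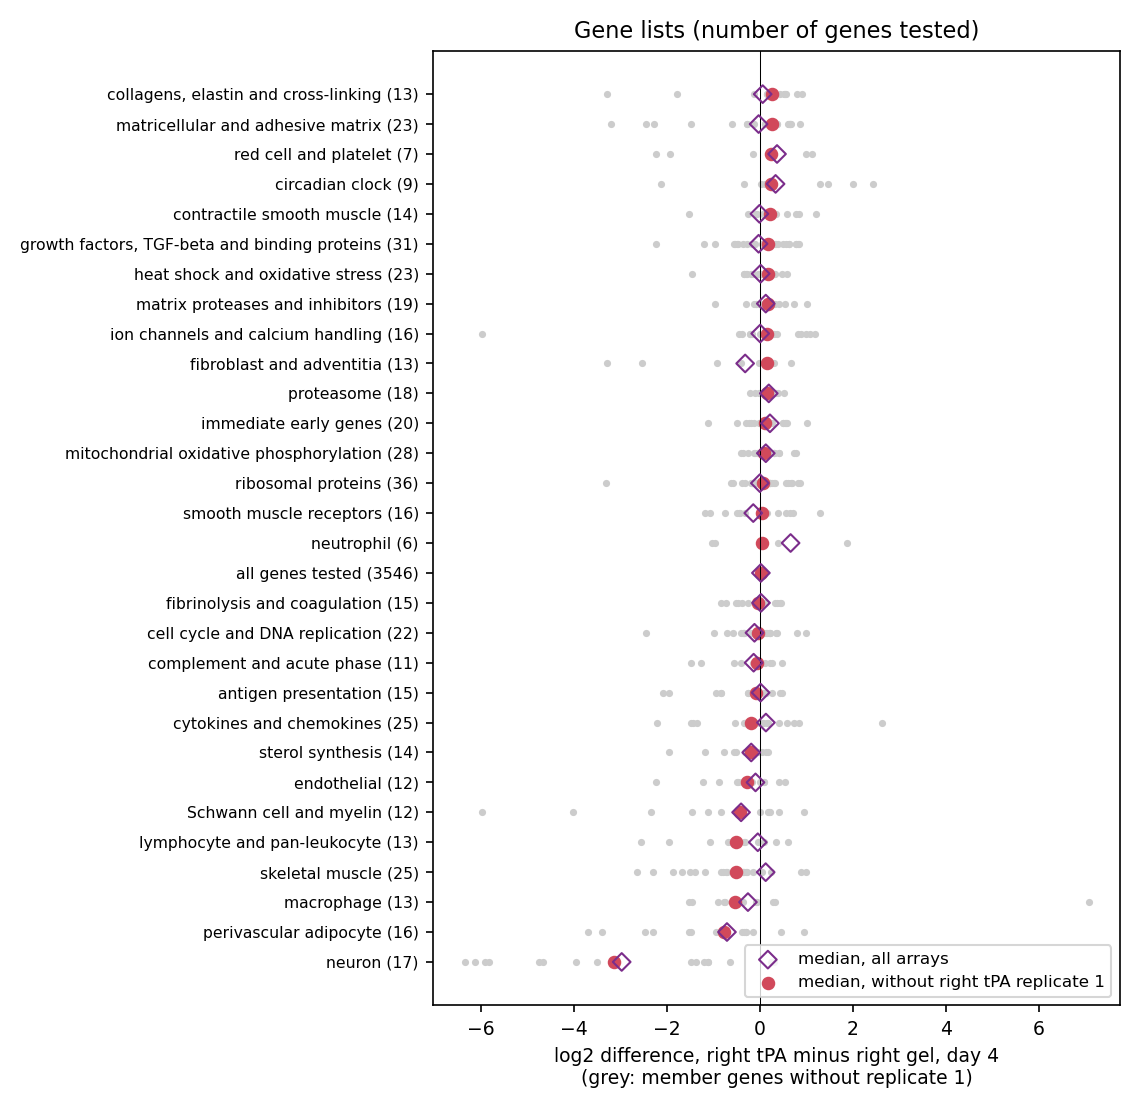
Each row is 1 gene list with the number of genes tested, and the horizontal axis is the log2 difference between right tPA and right gel on day 4; open diamonds are the list medians with all arrays, red points the medians without right tPA replicate 1 and grey points the member genes without that replicate. The neuron list lies at -2.97 and -3.14, the adipocyte list at -0.707 and -0.778, and most other medians lie near the 0.0224 of all genes tested.

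Whether the tPA difference of the right artery was particular to that artery was tested as the difference between the left and right tPA effects on day 4. This test contains the right arrays already described. It took left and right arrays as independent, although the labels do not say whether they came from the same rats. The left tPA arrays of day 4 also differed among themselves. Their mean level of the cell cycle list was -0.37 in 1 array, against 1.25 and 1.65 in the others. The difference passed for 3 probe sets (0.0515%) with all arrays and for 4 (0.0686%) without replicate 1. Of the genes with a brightest probe set among these, Resp18 and Rab4b passed with all arrays, and the third was the Gnas probe set that read close to 0 after gel. Resp18 differed by -0.05 on the log2 scale between left tPA and left gel arteries, so the left effect lay 3.83 ± 0.75 (SE) above the right effect (adjusted p = 0.0278). Rab4b was 1.94 lower after tPA in the left artery (a log2 difference of -1.94) and higher in the right, a difference between the effects of -3.84 ± 0.64 (SE, adjusted p = 0.00278). Resp18 is not on the neuron list, and none of the 17 neuron genes passed this test, which 0.0564% of all genes did, so a difference between the arteries was not shown for them. At an unadjusted p under 0.05 there were 7 of them, against 212 of 3546 genes in all, and 7 against 141 without replicate 1, with a median of 1.96 and of 0.0299 over all genes with all arrays. Th, for example, had a left difference of -0.37 and a difference between arteries of 2.6 ± 0.78 (SE, adjusted p = 0.4). Sncg had a left difference of -3.72, and Nefm one of -3.

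The difference between the days did pass. It contains the right arrays of day 4 already described, so it is not separate evidence for the fall of the neuron genes. It also rests on right tPA arrays of day 1 that differed among themselves. The mean level of the cell cycle list was 1.48 in 1 of them, against -0.322 and -0.188 in the others. The injured left gel arteries of day 1 lay at 0.962 to 1.43. The tPA effect in the right artery differed between day 4 and day 1 in 71 probe sets (1.22%), and in 112 (1.92%) without replicate 1. Of the 17 neuron genes, 9 had a lower effect on day 4 in both fits, against 1.16% of all genes with all arrays and 1.75% without replicate 1, with a median difference of -3.84 with all arrays and -4.01 without replicate 1. Th differed by -3.84 ± 0.78 on the log2 scale (SE, adjusted p = 0.00673), Gap43 by -4.52 ± 0.84 (adjusted p = 0.00289) and Uchl1 by -5.06 ± 0.79 (adjusted p = 0.000457). On day 1 the right gel arrays of Dbh read 10.1 to 69.3 and the right tPA arrays 8.5 to 345.7, so the groups overlapped then, and neither day 1 group came near the 866.7 to 4403.9 of the gel arrays on day 4. Dbh passed too (adjusted p = 0.00231), but several of its values lay under the floor, so the size of its difference was not measured. This test rested on single arrays: the count was 23 probe sets without right gel day 4 replicate 3 and 31 without right tPA day 1 replicate 1. The neuron genes with a lower effect numbered 8 and 7 in these fits.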

How the data were processed

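The data were values of 8799 probe sets on 40 arrays, of which 6 enter the main comparison. The values are linear intensities that had been scaled before they were deposited, to a mean near 500 on every array without the lowest and highest 2%. The summary algorithm is not given in the sources used here. Each array was hybridised with pooled RNA of 3 vessels, per the labels. A probe set has 1 value per array, so the arrays are the units of replication.

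After 59 control probe sets were left out, values under 23.3, the 20th percentile, were raised to it, log2 was taken and the third of probe sets with the lowest mean (2913) was not tested, which left 5827. Fits used limma 3.58.1 (lmFit and eBayes) in R 4.3.3 over 11 group means and 40 arrays, with Benjamini-Hochberg adjustment over all probe sets and a threshold of 0.05. The fit was run on simulated data with independent normal values and the same spread of a probe set in every group. Those data had no floor and no array that stood apart, so they do not show how the fit behaves under these conditions. Dim values compress to the floor, which understates large fold changes, and a group wholly at the floor gives a lower bound. Groups were taken from the labels, which do not say whether the pools came from separate experiments, so p-values measure only the spread between arrays.

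A gene was represented by its probe set with the highest mean, which gave 3546 genes. Of the probe sets, 7006 had 1 symbol in the platform annotation, 308 several and 1426 no entry. A probe set was called unstable where its upper quartile exceeded 2000 and its lowest value lay under 100 (55 probe sets). Named genes were the 12 largest rises and falls past the threshold in each fit (up to 5 by p where fewer passed), up to 4 members of each list by p without right tPA replicate 1, 10 fixed genes, the 12 genes farthest above and below in that replicate, and the largest differences between arteries and days. Genes outside this rule (Th, Syp, Npy, Slc18a2, Slc6a2, Ret, Gal, Vgf, Snap25, Chrnb4, Elavl4, Rab3b, Syt4, Stx1a, Gfra2, L1cam, Cadps, Gnas, Cyp2c11, Sostdc1, Cxcr2 and Il1r2) were chosen after their values were seen. The members and lists were chosen with earlier results of these data known. Alternatives covered normalization, scaling, floor, filter, array weights, moderation, the groups fitted, a replicate block, averaging over probe sets of 1 gene, and leaving out single arrays. Motifs and figures were made with Python 3.11.15, pandas 2.3.3 and matplotlib 3.10.9.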

Additional observations from a re-analysis of the deposited data

Results flagged for a closer look

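The tPA effect differed between the left and the right artery on day 4, tested as a difference of the effects, in 3 probe sets. Resp18 had a difference of 3.83 on the log2 scale, with the left effect above the right one, and Rab4b one of -3.84.

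The tPA effect in the right artery differed between day 4 and day 1 in 71 probe sets. The genes given here were looked up among those named in the text. Many of them had been named for their fall in the same right arrays of day 4, so their differences are not separate evidence. The effect was lower on day 4 for the enzymes of noradrenaline synthesis, by a log2 difference of -3.84 for Th and -8.02 for Dbh, and for the receptor subunit Chrna3 (-7.09). Among filament and microtubule genes the differences were -6.87 for Nefl, -8.21 for Nefm, -7 for Prph and -4.36 for Map2. Gap43 differed by -4.52, Uchl1 by -5.06, Sncg by -8.46, Mapk8ip2 by -5.72 and Mt3 by -6.04. In the genes of granules and vesicles the differences were -5.22 for Scg2, -6.93 for Scg3, -5.61 for Sv2b and -4.96 for Resp18. Outside neurons, Sostdc1 differed by -5.3, the glial gene S100b by -6.02 and the Apoe probe set that read close to 0 in some groups by 8.69. Several of these genes, among them Dbh, Nefm and Chrna3, had arrays under the floor of 23.3, so their differences are fitted values and not measured sizes. No array lay apart from its group by Dixon's criterion in 22 tests, which took the levels of 11 cell type lists in the 6 sham arrays of day 4 and in the 6 intact arrays; groups of 3 arrays were not tested.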

How the results depend on the processing

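With all arrays the count of probe sets was 95 and that of neuron genes 10. Leaving out the dimmest 50% of probe sets gave 61 and 6, fitting only the 2 groups gave 40 probe sets, and averaging the probe sets of a gene gave 62, over fewer features. Leaving out 1 array gave 34 to 92 probe sets and 8 to 9 neuron genes, the lowest without right gel replicate 3. Without right tPA replicate 1 the counts were 92 and 9. The dimmest 50% left out gave 50 and 5, only 2 groups 60 probe sets, and a further array left out 17 to 92 probe sets and 2 to 9 neuron genes. The cause of these losses was not tested. Deviations of same-numbered right gel and tPA arrays from their group means correlated at 0.052, 0.33 and -0.027. With 3 arrays a group, these values do not decide whether replicate numbers pair the samples. Pairing of right with left arteries was not examined. A replicate block gave 30 probe sets and 6 neuron genes over 2 groups and 61 and 9 over the 4 groups of day 4 with all arrays, and 78 and 69 probe sets without tPA replicate 1. With all arrays the other settings stayed within 1.5 times, from 90 (median scaling, which moved the median log2 difference of all probe sets from 0.022 to 0.12) to 142 (no filter). Without tPA replicate 1, averaging the probe sets of a gene gave 66, over fewer features. The remaining settings then ran from 79 (median scaling) to 135 (no filter).

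In a further setting 4 tPA arrays were left out together. They were replicate 1 of the right and of the left tPA group of day 4, and replicate 2 of the right and of the left tPA group of day 1. The difference between arteries went from 3 to 5 probe sets without these 4 arrays and ran from 2 to 12 with 1 array left out. The difference between days went from 71 to 141 and ran from 23 to 112. Against sham, gel ran from 175 to 542 and tPA from 6 to 133 with 1 array left out.

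Of 50 gene results that passed, 49 kept their direction under up to 19 alternatives. A gene counts once for each fit in which it passed, and a kept direction does not mean that it still passed. With all arrays, Lss no longer passed in 11 of 19 alternatives, Rab4b in 8 of 19, Ptgs2 in 7 of 19 and Cyp2c11 in 5 of 18. Without tPA replicate 1, Cyp2c11 no longer passed in 10 of 17. Chrna3 and Mapk8ip2 passed in every alternative of both fits. Rps29 without tPA replicate 1 ran from -6.69 to 0.0746 on the log2 scale with 1 more array left out. The other changes of direction were in genes that had not passed. With all arrays, median scaling gave Acta2 0.08475, Myh11 0.0940 and Timp1 0.0936, and a higher floor gave Eln 0.20. Array weights gave Plaur -0.03216, Acta2 0.05927, Myh11 0.35 and Timp1 0.13. Averaging the probe sets gave Acta2 0.48, Myh11 0.39, Col1a1 -0.0384 and Timp1 0.39, and leaving out the 4 tPA arrays gave Plaur -0.38, Acta2 0.0786, Myh11 0.77 and Timp1 0.33. With 1 array left out, Plat ran from -0.0763 to 0.32, Acta2 from -0.066 to 0.07997, Myh11 from -0.49 to 0.77, Timp1 from -0.30 to 0.33, Eln from -1.78 to 1.63 and Plaur from -0.38 to 0.78. Without tPA replicate 1, quantile normalization gave Acta2 -0.0412, the mean of probe sets gave Col1a1 -0.29, and the replicate block gave Plat -0.11 and Spp1 -0.15 over 2 groups and -0.13 and -0.05341 over 4. With 1 more array left out, Plat ran from -0.14 to 0.36, Spp1 from -0.15 to 0.70, Eln from -4.03 to 0.47 and S100a9 from -1.07 to 1.87.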
